A study of Mus musculus with 16 samples.

Results

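The granin family was described here by 7 genes, Chga, Chgb, Scg2, Scg3, Scg5, Vgf and Pcsk1n, taken by symbol from the 20072 genes of the deposited expression table. All 7 were in the table and all 7 passed the filter on low values. RNA had been sequenced in bulk from small intestinal cells of Tph1-CFP mice that were untreated and 8 to 16 weeks old, in which cyan fluorescent protein (CFP) reports Tph1, the enzyme that makes serotonin in enterochromaffin (EC) cells. Epithelium was split into villus and crypt fractions and sorted into CFP-positive EC cells and CFP-negative epithelial cells (epi), with 5000 cells pooled in each library. The 4 groups, with 4 libraries each, were villus EC, crypt EC, villus epi and crypt epi. All carried the Tph1-CFP genotype. The series design counts 4 mice or samples per group, and whether crypt, villus, EC and epi libraries share a mouse is not given in the sources used here, so p values measure the spread between libraries.

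Granins are acidic proteins of the dense core granule, the organelle in which endocrine and neuronal cells store amines and peptides until a stimulus releases them. Chromogranin A (Chga) and chromogranin B (Chgb) make up much of the granule matrix, bind calcium and amines, and are cut into peptides. Secretogranin II (Scg2) is a matrix protein and the precursor of secretoneurin, and secretogranin III (Scg3) links chromogranin A to the cholesterol-rich granule membrane. Scg5 encodes a chaperone of the prohormone convertase Pcsk2, Pcsk1n encodes proSAAS, an inhibitor of the convertase Pcsk1, and Vgf encodes a precursor of several neuroendocrine peptides. In the gut, chromogranin A is the common histological marker of enteroendocrine cells.

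On mm10 the genes lie apart on 6 chromosomes. Chga (ENSMUSG00000021194) is on chromosome 12, 102554969 to 102565028, and Chgb (ENSMUSG00000027350) on chromosome 2, 132781278 to 132795079. Scg5 (ENSMUSG00000023236) is also on chromosome 2, 113776362 to 113829121, on the other strand. Scg2 (ENSMUSG00000050711) is on chromosome 1, 79434669 to 79440120, Scg3 (ENSMUSG00000032181) on chromosome 9, 75643189 to 75684056, Vgf (ENSMUSG00000037428) on chromosome 5, 137026392 to 137033351, and Pcsk1n (ENSMUSG00000039278) on chromosome X, 7919822 to 7924410. GENCODE annotates each as protein coding. Values are gene-level totals, so no exon or isoform was measured separately.

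Promoter sequence is shown for Chga, Chgb and Scg2, the 3 matrix granins, because their windows share the letters of a cyclic AMP response element, the motif known for CREB-type factors. Each run is the 120 bases before the RefSeq start on GRCm38.p6, 5′ to 3′ on the gene's strand, and capitals mark matches to TGACGTNA.
Chga, chr12:102554821-102554940, plus strand: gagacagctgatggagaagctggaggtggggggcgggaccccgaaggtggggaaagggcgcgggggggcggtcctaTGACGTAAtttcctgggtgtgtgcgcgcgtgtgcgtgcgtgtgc
Chgb, chr2:132781522-132781641, plus strand: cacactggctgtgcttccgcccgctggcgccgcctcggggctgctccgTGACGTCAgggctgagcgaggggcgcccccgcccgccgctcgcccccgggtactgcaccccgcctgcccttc
Scg2, chr1:79440027-79440146, minus strand: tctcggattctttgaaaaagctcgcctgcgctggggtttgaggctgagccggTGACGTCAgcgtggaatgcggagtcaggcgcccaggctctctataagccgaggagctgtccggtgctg
The matches begin 44 bases before the start in Chga, 72 in Chgb and 68 in Scg2. GENCODE places the start 28 bases further downstream for Chga, and 364 and 94 bases further upstream for Chgb and Scg2. By the GENCODE starts, the Chgb and Scg2 matches thus lie inside the annotated gene and the Chga match before it.

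RefSeq promoter windows were found for 6 of the 7 genes, and Vgf had no entry. In the 250 bases before the start, searched on both strands, TGACGTCA occurred in 2 of the 6 and TGACGTNA, which includes it, in 3 of the 6. Of all 32851 windows in the table, 1.55% held TGACGTCA and 2.52% held TGACGTNA. The motifs were picked after these sequences had been seen, and a match is a description of letters, not of binding.

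The libraries were checked against their labels first. The sort was on a Tph1 reporter, and Tph1 averaged 15282 ± 1469 FPKM in villus EC, 5392 ± 1175 in crypt EC, 50.3 ± 26.8 in villus epi and 1.57 ± 0.563 in crypt epi (SD, n = 4 each). The deposited table names its unit FPKM, fragments scaled by transcript length and library size. The listed tools (kallisto, sleuth) usually give TPM, also a per-length unit, and which scaling was applied is not given in the sources used here. Levels of different genes were set side by side as per-length values. Column totals ran from 731415 to 1415123, and the read depth behind them is unknown. Villus epi replicate 2 stood apart, correlating across genes at 0.812 on average with the rest of its group (Pearson's r of log2 values, a description). The other villus epi libraries were at 0.923 to 0.926 and the other groups at 0.971 to 0.985. In this replicate, stroma and endothelium markers summed to 157 FPKM, against 4.35 to 5.68 in the other villus epi libraries. Its lymphocyte markers summed to 28.1 against 2.45 to 6.72, and its goblet markers to 12420.3 against 25441 to 36038. Enteric neurons also make granins, and 7 of 8 neuron and glia markers in the table summed to 9.07 to 12.1 FPKM in villus EC, 7.42 to 12.5 in crypt EC, 1.49 to 9.02 in villus epi and 1.19 to 1.81 in crypt epi. Gfap, a glial marker, stayed under 1 FPKM in every library. Hormones listed for other endocrine cells were present on both sides of the sort (7 of 7 genes). They summed to 1023 to 4106 FPKM in villus EC, 299.8 to 563 in crypt EC, 871 to 2588 in villus epi and 892 to 3053 in crypt epi, and none was at 0 in a whole group. In bulk samples, fewer cells of a type and less RNA per cell cannot be told apart.

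Chromogranins dominated the family in EC cells. Chgb had 20976, 23871, 24648 and 23849 FPKM in the villus EC libraries (replicates 1 to 4) and 27309, 30501, 30109 and 30568 in crypt EC. In villus epi it had 129, 126, 109.7 and 176, and in crypt epi 68.3, 52.2, 28.4 and 64.2. By FPKM, Chgb had rank 3 among all genes in each villus EC library and rank 2 in each crypt EC library, and no EC library overlapped an epi library. Chga had 12709, 14006, 14783 and 15852 FPKM in villus EC and 15732, 16845, 15491 and 16100.0 in crypt EC. In villus epi it had 71.1, 45.8, 58.9 and 97.9, and in crypt epi 13.9, 11.1, 8.71 and 11.5. Chga had rank 5 in every villus EC library and rank 3 in every crypt EC library.

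Together, Chga and Chgb made up 96.6% ± 0.185 of the summed granin FPKM in villus EC, 98.6% ± 0.0962 in crypt EC, 81.3% ± 6.51 in villus epi and 71.7% ± 2.61 in crypt epi (SD, n = 4). The sum of all 7 genes was 38982 ± 2865 FPKM in villus EC and 46311 ± 1950.2 in crypt EC, which is 4.50% ± 0.126 and 6.18% ± 0.216 of the library total. In villus epi the sum was 249 ± 44.2 and in crypt epi 90.5 ± 29.0. The Chgb to Chga ratio, which does not depend on how a library was scaled, was 1.5 to 1.70 in villus EC, 1.74 to 1.94 in crypt EC, 1.80 to 2.74 in villus epi and 3.26 to 5.56 in crypt epi. The ranges of the EC groups did not overlap, nor did those of the epi groups.

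**Figure D1:**
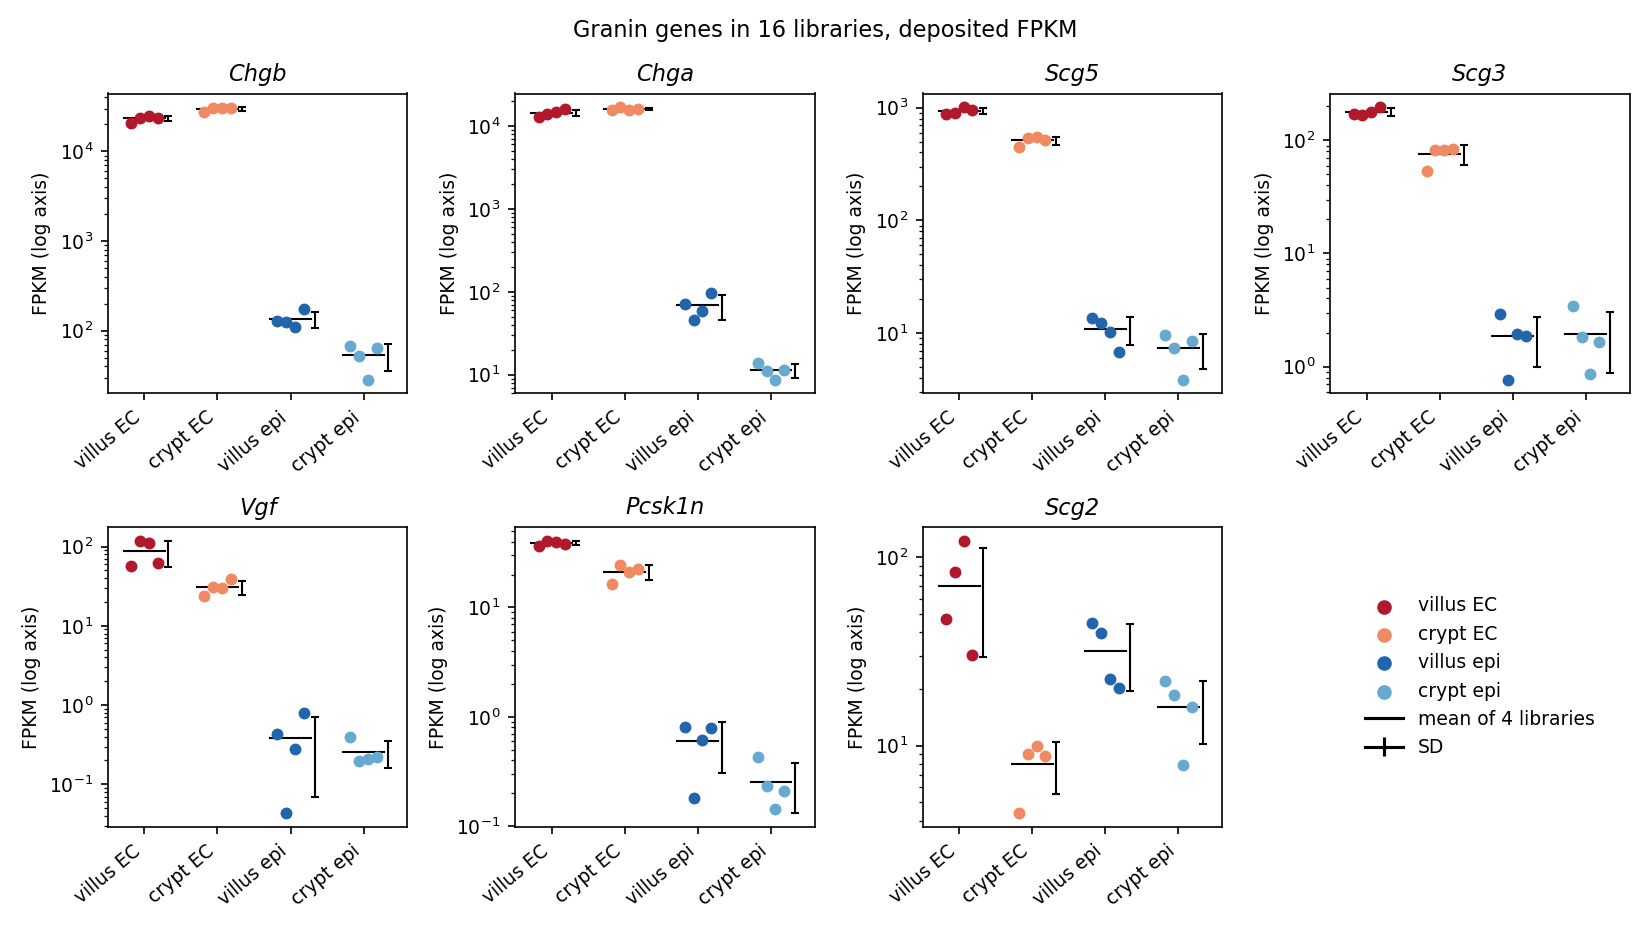
Deposited FPKM of the 7 granin genes (log axis) in the 4 libraries of villus EC, crypt EC, villus epi and crypt epi; each point is a library, the horizontal line is the group mean and the bar beside it the SD. For 6 genes every EC library lies above every epi library, whereas the Scg2 points of villus EC (30.1 to 122) and villus epi (20.2 to 44.4) overlap and its crypt EC points (4.38 to 9.90) have the lowest mean of the 4 groups.

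The processing partners Scg5 and Pcsk1n were at lower levels. Scg5 had 872, 901, 1009 and 953 FPKM in villus EC and 451, 532, 543 and 521 in crypt EC. In villus epi it had 13.7, 12.4, 10.2 and 6.85, and in crypt epi 9.60, 7.33, 3.87 and 8.49. Villus EC libraries were thus above crypt EC libraries without overlap, and both were far above epi. Its client Pcsk2 was low throughout, at 2.65 ± 0.912 FPKM in villus EC, 0.559 ± 0.184 in crypt EC, 0.579 ± 0.775 in villus epi and 0.183 ± 0.0668 in crypt epi (SD, n = 4). Pcsk1n had 36.5, 40.8, 39.6 and 38.0 FPKM in villus EC and 16.4, 24.4, 21.0 and 22.4 in crypt EC, against 0.18 to 0.813 in villus epi and 0.144 to 0.43 in crypt epi. Pcsk1, the convertase that proSAAS inhibits, was at 531 ± 42.9 FPKM in villus EC, 499.9 ± 5.25 in crypt EC, 6.53 ± 3.34 in villus epi and 6.99 ± 1.84 in crypt epi. In EC cells at both sites, Scg5 was therefore the more abundant gene of its pair and Pcsk1n the less abundant of its pair.

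Scg3, the membrane-linking granin, had 171, 167, 180.0 and 197 FPKM in villus EC and 53.3, 82.2, 83.1 and 84.1 in crypt EC. It had 2.92, 0.765, 1.94 and 1.88 in villus epi and 3.43, 1.84, 0.864 and 1.65 in crypt epi. EC and epi libraries did not overlap, nor did the EC groups with each other, and the epi groups did. Vgf had 56.6, 118, 111 and 62.9 FPKM in villus EC and 23.9, 30.6, 30.1 and 39.3 in crypt EC, against 0.0432 to 0.806 in villus epi and 0.198 to 0.401 in crypt epi. Its villus EC libraries formed a high pair (replicates 2 and 3) and a lower pair (replicates 1 and 4), both above crypt EC.

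Scg2 followed another order. It had 46.8, 82.9, 122 and 30.1 FPKM in villus EC, 4.38, 9.01, 9.90 and 8.78 in crypt EC, 44.4, 39.7, 22.5 and 20.2 in villus epi and 21.9, 18.5, 7.93 and 16.1 in crypt epi. The group mean was highest in villus EC (70.5 ± 40.9), then in villus epi (31.7 ± 12.1), crypt epi (16.1 ± 5.95) and crypt EC (8.02 ± 2.47, SD, n = 4). Each group overlapped its neighbour in this order. As a share of the summed granin FPKM, Scg2 was at 0.0733% to 0.299% in villus EC and 0.0101% to 0.0214% in crypt EC, against 6.62% to 17.7% in villus epi and 15.7% to 20.2% in crypt epi. In 3 of 4 crypt epi libraries it was second to Chgb alone.

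The order of the members by FPKM was the same in all 4 crypt EC libraries, Chgb, Chga, Scg5, Scg3, Vgf, Pcsk1n and Scg2. In villus EC the first 4 places were the same, and Vgf, Scg2 and Pcsk1n changed places among libraries. Scg2 came after Chgb and Chga in every villus epi library. The shares of Scg5 (2.30% to 2.50% in villus EC, 1.03% to 1.17% in crypt EC) and Scg3 (0.427% to 0.492% in villus EC, 0.122% to 0.179% in crypt EC) did not overlap between the EC groups. Nor did those of Vgf, Pcsk1n and Scg2, also higher in villus EC. The Chgb share was lower there without overlap (58.2% to 60.9%, against 62.6% to 65.0% in crypt EC). Only the Chga shares overlapped (35.7% to 38.7% in villus EC, 33.5% to 36.1% in crypt EC).

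**Figure D2:**
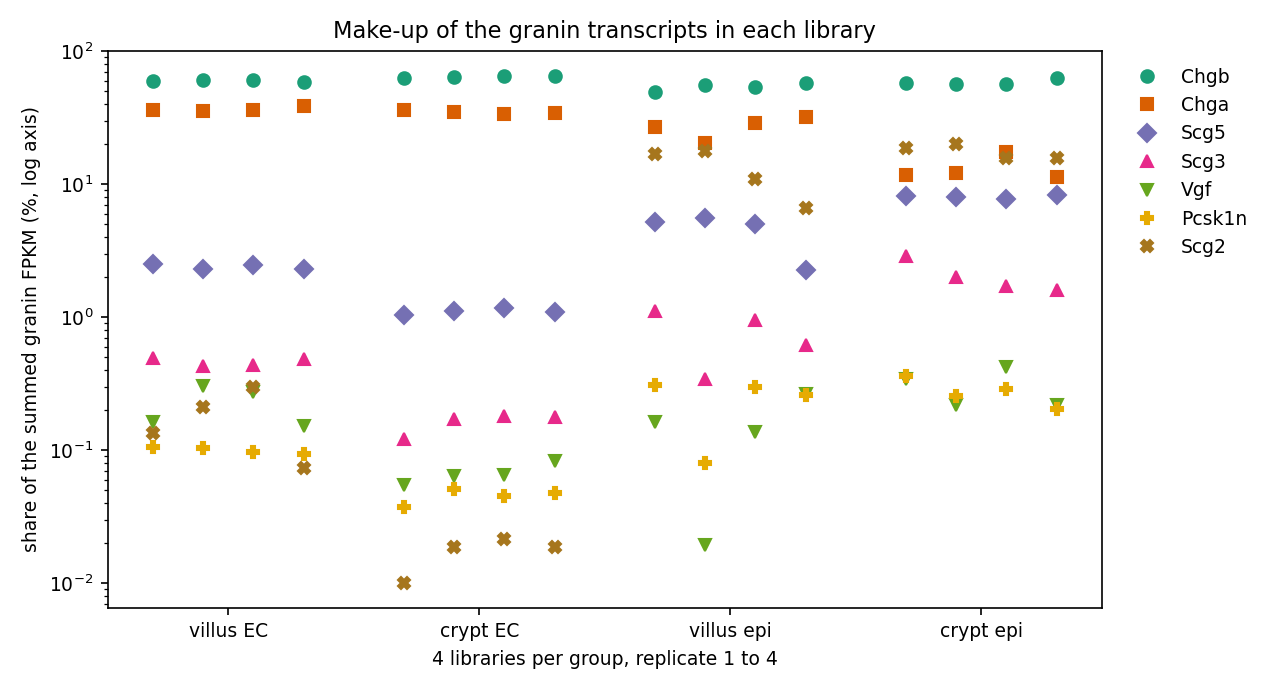
Share of each granin gene in the summed FPKM of the 7 (percent, log axis) for every library, in the groups villus EC, crypt EC, villus epi and crypt epi, replicates 1 to 4 from left to right. Chgb holds 49.1% to 65.0% everywhere, and Scg2 is at 0.0101% to 0.299% in the EC libraries and 6.62% to 20.2% in the epi libraries.

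EC cells were then compared with other epithelial cells at each site, by limma on log2(FPKM + 1) over 14089 tested genes, with Benjamini-Hochberg adjustment. In the villus, 7 of 7 granin genes were called higher at an adjusted p below 0.05 and 0 lower (40.6% of all tested genes were called higher and 21.6% lower), and their median log2 difference was 6.02, against 0.33 over all tested genes. In the crypt, 6 of 7 were called higher and 0 lower (23.2% and 20.0% of all tested genes), with a median of 4.75 against 0.05. At an unadjusted p below 0.05 the count of lower genes was also 0 at both sites. Among the 6 genes other than Scg2, EC and epi libraries did not overlap at either site (35.1% of tested genes in the villus and 31.3% in the crypt lay higher without overlap).

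On the log2(FPKM + 1) scale Chga had the largest difference of the family at both sites. As a ratio of mean FPKM, Vgf was above it in the villus (224 against 209.5 for Chga), and Chga was highest in the crypt (1418). In villus EC it was 7.74 ± 0.18 (SE) log2 units above villus epi (adjusted p = 1.24e-13), with means of 14337 and 68.4 FPKM. In crypt EC it was 10.36 ± 0.18 above crypt epi (adjusted p = 6.72e-15), with means of 16042 and 11.3. Chgb was higher by 7.44 ± 0.22 in the villus (adjusted p = 8.9e-13) and by 9.16 ± 0.22 in the crypt (adjusted p = 9.75e-14). For the remaining 4 genes that rose at both sites, the differences were 4.66 to 6.35 in the villus and 4.13 to 6.0 in the crypt. Scg5 was at 6.35 and 6.0, Scg3 at 6.02 and 4.75, Vgf at 5.94 and 4.65 and Pcsk1n at 4.66 and 4.13, in the villus and the crypt. Adjusted p values of these 4 genes ran from 4.34e-12 to 1.12e-09. A pseudocount of 5 lowered the Vgf difference to 2.76 in the crypt, and that of Pcsk1n to 2.97 in the villus and 2.30 in the crypt, with all calls kept.

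Scg2 was the exception. In the villus its difference was 1.02 ± 0.42 (SE), with means of 70.5 and 31.7 FPKM and an adjusted p of 0.0461. That call was made in 12 of 27 alternatives, with differences from 0.47 to 1.63 and adjusted p from 0.00196 to 0.476. It was lost with median-of-ratios scaling (adjusted p = 0.134), with only the groups compared in the fit (0.0944), with no filter on low values (0.0601) and with a pseudocount of 0.1 (0.0519). It was also lost without villus EC replicate 2 or 3 (0.118 and 0.164) or villus epi replicate 3 or 4 (0.11 and 0.124), and narrowly without crypt EC replicate 2, 3 or 4 or crypt epi replicate 2 or 4 (0.0531 to 0.0556). In the crypt the difference was -0.89 ± 0.42, with means of 8.02 in crypt EC and 16.1 in crypt epi, and did not pass the test (adjusted p = 0.101). It was negative in all 27 alternatives and called in 3 of them, without crypt epi replicate 3 (-1.18, adjusted p = 0.0396), with array weights (0.0135) and with only the groups compared in the fit (0.031).

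**Figure D3:**
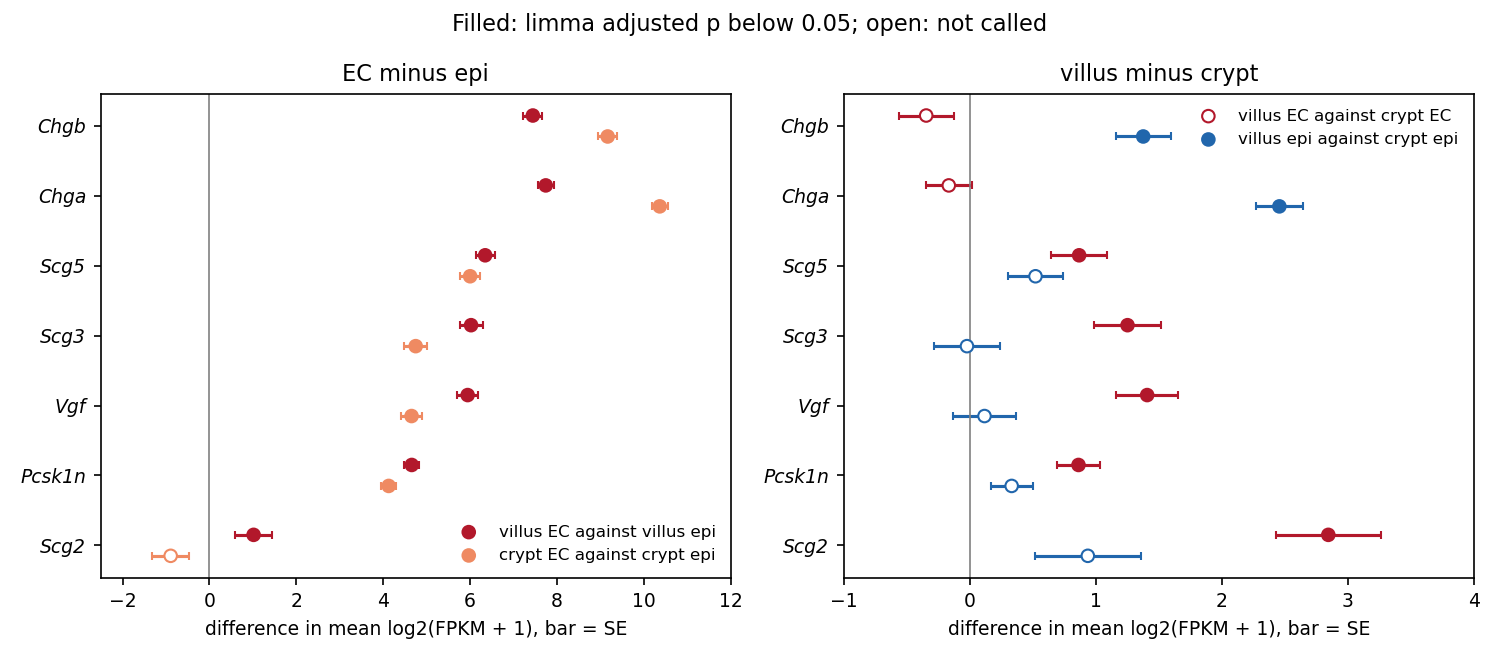
Differences in mean log2(FPKM + 1) with SE for EC minus epi (left) and villus minus crypt (right); filled points were called by limma at an adjusted p below 0.05 and open points were not. On the left, Chga and Chgb lie further right in the crypt than in the villus, and on the right the EC differences of Scg5, Scg3, Vgf, Pcsk1n and Scg2 are called whereas the epi differences called are those of Chga and Chgb.

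The levels in CFP-negative cells were also read as a percentage of the mean EC level at the same site. In the villus this was 0.477% for Chga, 0.578% for Chgb, 1.16% for Scg5, 1.05% for Scg3, 0.446% for Vgf and 1.54% for Pcsk1n. In the crypt it was 0.0705% for Chga, 0.18% for Chgb, 1.43% for Scg5, 2.57% for Scg3, 0.831% for Vgf and 1.21% for Pcsk1n. Tph1, on which the sort was made, was at 0.329% in the villus and 0.0291% in the crypt. Scg2 was at 44.9% in the villus and 201% in the crypt. The mean Scg2 level of CFP-negative crypt cells was thus above that of crypt EC, although crypt epi replicate 3 (7.93) lay within the crypt EC range.

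**Figure D4:**
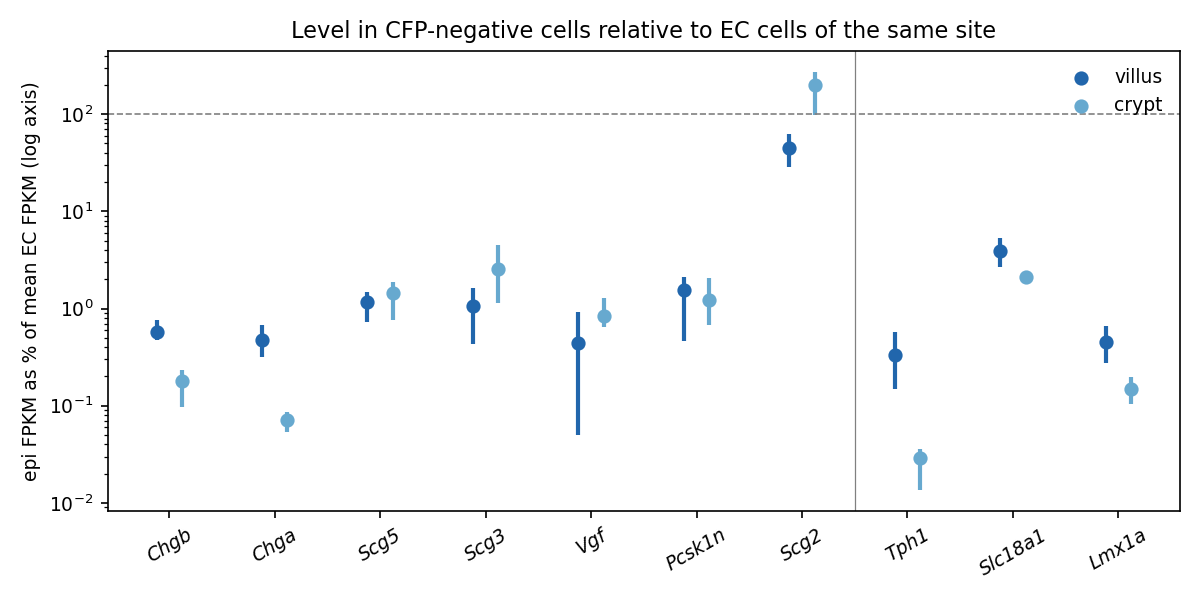
FPKM in CFP-negative cells as a percentage of the mean FPKM of EC cells from the same site (log axis); points are group means and lines run from the lowest to the highest epi library. The granins other than Scg2 lie between 0.0705% and 2.57%, Tph1, Slc18a1 and Lmx1a of EC cells between 0.0291% and 3.88%, and Scg2 at 44.9% in the villus and 201% in the crypt, around the dashed line at 100%.

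Between the sites, the granins called in EC cells were the less abundant ones. In villus EC against crypt EC, 5 of 7 genes were called higher and 0 lower (10.3% and 16.2% of all tested genes; also 0 lower at an unadjusted p below 0.05, limma), with a median difference of 0.87 against -0.05 over all tested genes. Scg2 had the largest difference, 2.85 ± 0.42 (SE, adjusted p = 0.000106), with means of 70.5 ± 40.9 FPKM in villus EC and 8.02 ± 2.47 in crypt EC. Vgf was higher by 1.41 ± 0.25 (87.2 and 31.0 FPKM, adjusted p = 0.000507) and Scg3 by 1.25 ± 0.26 (179 and 75.7, adjusted p = 0.00217). Scg5 was higher by 0.87 ± 0.22 (933 and 511, adjusted p = 0.00845) and Pcsk1n by 0.86 ± 0.17 (38.7 and 21.0, adjusted p = 0.00115). All 5 were separated without overlap (19.0% of tested genes lay higher without overlap). Their differences were positive in all 27 alternatives. Scg2 and Vgf were called in all 27, Scg3 and Scg5 in 26 and Pcsk1n in 25. Among those without a replicate block, the call lost was that of Pcsk1n with a pseudocount of 0.1 (adjusted p = 0.0798). Paneth markers (5 of 5) and stem and cycling markers (4 of 4) fell in villus EC against crypt EC, with summed levels of 51.8 to 94.3 against 4714 to 7557 FPKM and 3.80 to 5.09 against 816 to 1384 FPKM. Goblet markers (3 of 6) and absorptive markers (2 of 7) rose, with none called lower, and summed to 6080.0 to 8924 against 1448 to 2184 FPKM and 1583 to 2366 against 323 to 1147 FPKM. Among the goblet genes, Tff3 (2.21), Fcgbp (3.38) and Spdef (1.40) rose, and Tff3 averaged 6905 FPKM in villus EC and 1517 in crypt EC. Muc2 (-0.86), Clca1 (-0.82) and Zg16 (-0.56) had negative differences that did not pass the test. The part of other cell types in the granin differences was not tested.

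Chga averaged 14337 ± 1323 FPKM in villus EC and 16042 ± 591 in crypt EC (SD, n = 4). Its difference was -0.17 ± 0.18 (SE) and did not pass the test (adjusted p = 0.605). Chgb averaged 23336 ± 1617 FPKM in villus EC and 29622 ± 1555 in crypt EC, with every villus EC library below every crypt EC library (26.2% of tested genes lay lower without overlap). Its difference of -0.35 ± 0.22 did not pass the test either (adjusted p = 0.292), except with all libraries scaled to the same total (-0.55, adjusted p = 0.0482). The SE pools the spread of all 4 groups and is not that of the EC libraries alone. The Chgb coefficient of variation was 6.93% in villus EC and 5.25% in crypt EC, against 21.2% in villus epi and 33.7% in crypt epi.

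In CFP-negative cells it was the chromogranins that differed between the sites. In villus epi against crypt epi, 2 of 7 genes were called higher and 0 lower (19.6% and 35.4% of all tested genes, limma). At an unadjusted p below 0.05, 4 were higher and 0 lower. Chga was higher by 2.46 ± 0.18 (SE, adjusted p = 2.16e-08), with means of 68.4 ± 22.2 and 11.3 ± 2.11 FPKM. Chgb was higher by 1.38 ± 0.22 (adjusted p = 5.87e-05), with means of 135 ± 28.6 and 53.3 ± 17.9. Neither gene's groups overlapped (16.6% of tested genes lay higher without overlap). Scg5 (0.52, adjusted p = 0.0585), Scg2 (0.94, adjusted p = 0.0704), Pcsk1n (0.33), Vgf (0.12) and Scg3 (-0.02) did not pass the test. With median-of-ratios scaling Scg5 and Scg2 were called as well (adjusted p = 0.0147 and 0.0316) and the Scg3 difference was 0.11. Leaving out 1 library also moved these calls. Scg5 and Scg2 were called without villus epi replicate 4 (0.0114 and 0.0483), Scg5 without crypt epi replicate 1 (0.0276), Scg2 without villus EC replicate 3 or 4 (0.0495 and 0.0469) and Pcsk1n without villus epi replicate 2 (0.00576), the library that stood apart. Tph1 was higher in villus epi too, by 4.2 ± 0.30 (adjusted p = 1.42e-08), and its part in the chromogranin differences was not tested.

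The difference of EC from epi was itself compared between the sites by the interaction term, villus minus crypt. It was called for 5 of 7 genes, 3 positive (26.9% of all tested genes) and 2 negative (16.0%). It was negative for Chga (-2.62 ± 0.26 SE, adjusted p = 1.46e-06) and Chgb (-1.72 ± 0.31, adjusted p = 0.000332), the genes that were higher in villus epi. It was positive for Scg2 (1.91 ± 0.59, adjusted p = 0.0167), Vgf (1.29 ± 0.35, adjusted p = 0.0076) and Scg3 (1.27 ± 0.37, adjusted p = 0.0122). Scg5 (0.35, adjusted p = 0.402) and Pcsk1n (0.53, adjusted p = 0.0857) did not pass the test. Of 26 alternatives, Chga and Chgb were called in all, Scg2 in 25, and Vgf and Scg3 in 24. Among alternatives without a replicate block, the calls lost were those of Vgf (adjusted p = 0.138) and Scg3 (0.0656) with a pseudocount of 0.1, which weighs low epi values more.

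Hormones listed for other endocrine cells were set beside Scg2, library by library. Pyy averaged 1313 FPKM in villus EC and 137 in villus epi, and Gip 59.9 and 759. The sum was thus weighted to different genes in different groups. In villus EC the hormone sum was 1023, 2565, 4106 and 1727 FPKM in replicates 1 to 4, where Scg2 had 46.8, 82.9, 122 and 30.1. Replicate 3 was highest in both, and replicates 1 and 4 were the lower pair in both. In villus epi the hormone sum was 2588, 1123, 1494 and 871 beside Scg2 values of 44.4, 39.7, 22.5 and 20.2, with replicate 1 highest and replicate 4 lowest in both. In crypt epi it was 3053, 2691, 892 and 2878 beside 21.9, 18.5, 7.93 and 16.1, again with replicate 1 highest and replicate 3 lowest in both. In crypt EC it was 563, 303, 360.2 and 299.8 beside 4.38, 9.01, 9.90 and 8.78, and there the library with the highest hormone sum had the lowest Scg2. Of the 7 hormone genes, 3 were called higher and 0 lower in villus EC against crypt EC (10.3% and 16.2% of all tested genes), and 0 higher and 4 lower in crypt EC against crypt epi (23.2% and 20.0%). In villus EC against villus epi, 1 was higher, Pyy (3.21, limma, adjusted p = 2.62e-05), and 1 lower, Gip (-3.49, adjusted p = 0.000534). Of all tested genes, 40.6% were higher and 21.6% lower there. The order of the hormone sum and Scg2 was not the same throughout. It was opposite for replicates 1 and 4 of villus EC, 2 and 3 of villus epi and 2 and 4 of crypt epi. Other granins shared some of the extremes. Crypt epi replicate 1 was the highest for 7 of 7 granins and replicate 3 the lowest for 6 of 7. In villus epi, replicate 1 was the highest for 4 of 7 and replicate 4 the lowest for 2 of 7. Vgf was also lower in villus EC replicates 1 and 4 (56.6 and 62.9 FPKM). The part of other endocrine cells in the Scg2 values was not tested.

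Single libraries were also at the extreme of their group for several members. Crypt EC replicate 1 was the lowest of its group for 6 of 7 granins, and its Tph1 was at 3678 FPKM, against 5573, 6163 and 6152 in the other crypt EC libraries. Crypt epi replicate 3 was the lowest of its group for 6 of 7 and crypt epi replicate 1 the highest for 7 of 7. Villus EC replicate 1 was the lowest for 5 of 7. Column totals were also the lowest of their group in crypt EC replicate 1 (731415), crypt epi replicate 3 (1045160) and villus EC replicate 1 (805073). Crypt epi replicate 1 had the highest of its group (1136983). Villus epi replicate 3 had the highest total (1415123) and was highest for 0 of 7. The part of the totals in these extremes was not tested. The coefficient of variation in EC groups was smallest for Chga in crypt EC (3.69%), followed by Pcsk1n in villus EC (4.83%), and largest for Scg2 in villus EC (58.0%). Without crypt EC replicate 1 every member call of the comparisons with crypt EC was kept.

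Among genes outside the family, those of most similar pattern were sought by the root mean square difference between log2(FPKM + 1) profiles over the 16 libraries, each centred on its mean. Chgb was closest to Amigo2 (0.39), Ucn3 (0.50), the urocortin 3 gene, and Lmx1a (0.55), a transcription factor of EC cells. Chga was nearer to Chgb (0.57) than to any gene outside the family, where Afp (0.83), Amigo2 (0.83) and Ucn3 (0.84) came first. Scg5 lay nearest Ptprn (0.37), a granule membrane protein, Neurod1 (0.39), a basic helix-loop-helix factor of endocrine cells, and Tmigd3 (0.41). Scg3 lay nearest Fam43a (0.27), Gdap1l1 (0.28) and Sh3kbp1 (0.31), Vgf nearest Wif1 (0.28), Fam43a (0.36) and Nrp1 (0.37), and Pcsk1n nearest Ppp1r14c (0.24), Kcnb2 (0.25) and Fgf14 (0.29). Scg2 was closest to Hbegf (0.59), a growth factor gene, Cyp2j5 (0.60) and Tmcc3 (0.65). Within the family Scg3 and Vgf were the nearest pair (0.37), and Scg2 was at least 2.35 from every other member.

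Other genes of the granule pathway were counted in lists chosen with earlier results of these data known. Of 10 tested prohormone processing enzymes, EC cells had 7 higher and 1 lower in the villus, and 5 higher and 1 lower in the crypt, relative to epi (medians 2.56 and 1.56; over all tested genes 40.6% were higher and 21.6% lower in the villus, and 23.2% and 20.0% in the crypt). Pcsk1 was higher by 6.31 and 6.0 log2 units and carboxypeptidase E (Cpe), which trims the cut peptides, by 4.71 and 4.78 (villus and crypt, adjusted p at most 4.21e-09). Pcsk1 (0.08, adjusted p = 0.907) and Cpe (-0.11, adjusted p = 0.859) did not pass the test between villus EC and crypt EC. In that comparison 3 enzymes were higher and 0 lower (10.3% and 16.2% of all tested genes), Pcsk2 (1.2), Qpct (1.18), the glutaminyl cyclase, and Ctsl (1.12), a cathepsin of granules and lysosomes. At an adjusted p of 0.00238 or less, they moved in the direction of Scg2, Scg3, Scg5, Vgf and Pcsk1n.

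Of 20 tested genes of granule biogenesis and traffic, 12 were higher and 2 lower in EC cells of the villus, and 9 higher and 1 lower in those of the crypt (medians 1.40 and 0.36), against all-gene shares of 40.6% and 21.6% in the villus and 23.2% and 20.0% in the crypt. Resp18, a luminal granule protein, was higher by 6.67 and 7.02, and Ptprn by 6.09 and 5.54 (villus and crypt, adjusted p at most 1.46e-11). Between villus EC and crypt EC, 4 were higher and 2 lower, against 10.3% and 16.2% of all tested genes. Syt7, a calcium sensor of granule release, was at 29.8 ± 3.40 FPKM in villus EC and 4.87 ± 2.43 in crypt EC (2.53, adjusted p = 1.5e-05). Baiap3, a granule trafficking protein, was at 6.02 ± 1.18 and 132 ± 22.3 (-4.25, adjusted p = 2.79e-09), and Ptprn2 at 33.2 ± 2.17 and 79.7 ± 8.08 (-1.23, adjusted p = 7.08e-05). Members of the list thus moved both ways between the sites.

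Among 9 tested transcription factors of neuroendocrine genes, the counts for EC against epi were 7 higher and 1 lower in the villus and 6 higher and 2 lower in the crypt (medians 3.29 and 2.71), where 40.6% and 21.6% of all tested genes were called in the villus and 23.2% and 20.0% in the crypt. Lmx1a was higher by 7.24 and 7.90, and Neurod1 by 6.86 and 5.96, in the villus and the crypt. Rest, a repressor of neuronal and neuroendocrine genes, was lower in EC cells, at 0.114 ± 0.0486 FPKM in villus EC against 2.57 ± 0.688 in villus epi (-1.66, adjusted p = 5.37e-07), and 1.21 ± 0.484 in crypt EC against 5.68 ± 0.569 in crypt epi (-1.62, adjusted p = 1.69e-06). Between villus EC and crypt EC 2 were higher and 2 lower (all genes, 10.3% and 16.2%). There Neurod1 (1.56, adjusted p = 3.9e-05) and Insm1 (0.98, adjusted p = 0.000814) rose, and Nkx2-2 (-1.47, adjusted p = 1.75e-05) and Rest (-0.96, adjusted p = 0.000587) fell.

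Amine synthesis and loading, the other cargo system of the EC granule, was counted from 4 genes. In villus EC against villus epi 3 were higher (40.6% of all tested genes), and in crypt EC against crypt epi 4 were (23.2%), where the Tph1 difference is set by the CFP sort. Between villus EC and crypt EC, Tph1 was higher by 1.53 (limma, adjusted p = 0.00142). The decarboxylase gene Ddc (-1.30, adjusted p = 4.03e-07) and Slc18a2 (-4.02, adjusted p = 1.54e-05), a vesicular monoamine transporter gene, were lower. Slc18a2 was at 6.21 ± 2.42 FPKM in villus EC and 112 ± 11.9 in crypt EC. The other transporter gene of the list, Slc18a1, was at 1092 ± 93.9 FPKM in villus EC and 825 ± 85.5 in crypt EC. Its difference of 0.41 did not pass the test (adjusted p = 0.07).

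**Figure D5:**
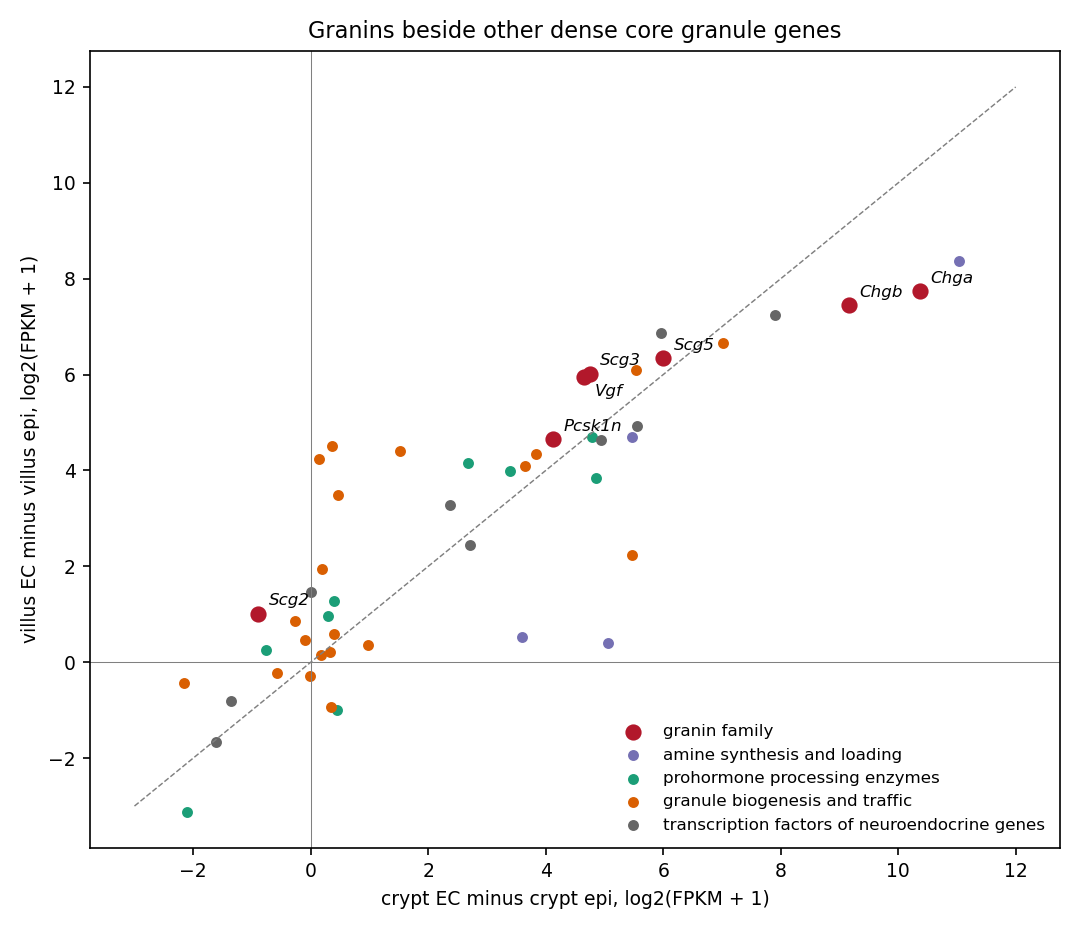
Log2 difference of EC from epi in the crypt (horizontal) and the villus (vertical) for the granins (large red points, named) and 4 lists of granule-related genes; each point is a gene and the dashed line marks equal differences. Chga and Chgb lie below the line, Scg3, Vgf and Scg2 above it, and Scg2 is the only granin left of 0 in the crypt (-0.89, not called).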

How the data were processed

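The authors' deposited table holds gene-level FPKM for 20072 genes in 16 libraries. Per the labels' protocols, full-length cDNA was amplified from small amounts of RNA (SMART-Seq HT, Nextera XT), and the submitters' processing notes list bcl2fastq 2.20, kallisto, sleuth and mm10. How libraries were scaled is not given in the sources used here, totals differ between libraries, and with no counts the depth is unknown, so no counting interval is given.

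Values were used as deposited, as log2(FPKM + 1). The 14089 genes at 1 or more in at least 4 libraries were fitted with limma 3.58.1 (R 4.3.3; 4 group means over 16 libraries, variance trend, two-sided, Benjamini-Hochberg over all tested genes, called below 0.05). The fit was tested on simulated data with normal noise and, for each gene, the same spread in every group. That setting does not cover groups of unequal spread. Group values are means ± SD. Differences of mean log2 values understate those of low genes.

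The members and lists were chosen with earlier results of these data known. Named genes were all members, up to 4 called genes per list and comparison with the largest difference, and the 3 genes nearest each member, leaving out unnamed models. A few other genes are named beside a member. Sequences and starts are from RefSeq (GRCm38.p6), positions from GENCODE M21.

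Alternatives were pseudocounts of 0.1 and 5, 2 other filters, 2 other scalings, fits of only the groups compared, no trend, array weights, 2 replicate blocks and leaving out each library.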

Additional observations from a re-analysis of the deposited data

Results flagged for a closer look

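In 5 genes the difference of EC from epi was not the same at both sites by the interaction term (limma, adjusted p from 1.46e-06 to 0.0167). It was smaller in the villus for Chga (-2.62) and Chgb (-1.72), and larger there for Scg2 (1.91), Scg3 (1.27) and Vgf (1.29), all in log2 units. With a pseudocount of 0.1, Scg3 and Vgf were not called (0.0656 and 0.138), and with the library number as a block none of the 3 positive differences was.

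Of 32 sets of 4 libraries (7 genes and their sum in 4 groups), 3 held a library far from the other 3 by Dixon's test, which chance gives in about 1 set of 20. Crypt EC replicate 1 was low for Chgb (27309 FPKM, against 30109 to 30568) and for Scg3 (53.3 FPKM, against 82.2 to 84.1). Crypt epi replicate 1 was high for Vgf (0.401 FPKM, against 0.198 to 0.222).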

How the results depend on the processing

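Of the values recomputed under other settings without leaving out a library or adding a block, 289 kept their direction and side of the threshold. Among the rest, 7 lost a call, 10 gained a call and 2 changed sign. With a library left out 541 were kept, 9 lost a call, 7 gained a call and 3 changed sign. Exceptions beside those given in the report follow. With a pseudocount of 0.1, 1 member was positive in the interaction and Pcsk1n was at -0.004 (adjusted p = 0.996), while Pcsk1n was called higher in villus epi against crypt epi (0.90, 0.0377). A pseudocount of 5 called the Pcsk1n interaction (0.67, 0.001). Median-of-ratios scaling called 4 members higher in villus epi against crypt epi, with Scg3 at 0.11 (0.76). Scaling to the same total called 1 member lower (Chgb) in villus EC against crypt EC, and moved the share of higher genes among all calls to 81.0%, against 53.6% as deposited, for EC against epi in the crypt, to 80.7% against 65.3% in the villus, to 24.5% against 38.9% between EC groups and to 24.9% against 35.6% between epi groups. It shifted the median of all genes to 0.51, 0.80, -0.23 and -0.38 in the same order, against 0.05, 0.33, -0.05 and -0.19. Fits of only the groups compared and array weights each called 1 member lower (Scg2) in crypt EC against crypt epi, with 9204 and 9928 genes called in all against 6088, and 6670 and 7255 against 3736 in villus EC against crypt EC. Array weights gave 5 positive interactions, with Scg5 (0.0376) and Pcsk1n (0.0497) added, and called Pcsk1n higher in villus epi against crypt epi (0.40, 0.0101).

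Leaving out 1 library gave 0 to 1 members lower in crypt EC against crypt epi and 2 to 4 higher in villus epi against crypt epi, where Scg3 ranged from -0.22 to 0.20 and Vgf from -0.019 to 0.25. All genes called in villus EC against crypt EC ranged from 2906 to 6542, the highest without villus epi replicate 2.

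Libraries with the same replicate number were not shown to be paired (correlations of deviations -0.268 to 0.17; 3 of 16 correlated best with their own number). As a replicate block, the title number changed 1 member call, Scg2 in villus EC against villus epi (0.058). The library number in the labels as a block left 2 members higher in villus EC against crypt EC (1841 genes in all), with Scg3, Scg5 and Pcsk1n at adjusted p of 0.0942, 0.103 and 0.0836, and 0 positive interactions (Scg2 1.32, 0.116; Scg3 0.0824; Vgf 0.0501). Under it Scg2 was at 0.47 in villus EC against villus epi (0.476) and was called higher in villus epi against crypt epi (1.40, 0.0308). Read depth is unknown, so its limit on the low epi values cannot be given.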
